A study of Mus musculus with 12 samples.

Results

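The genes described here encode the enzymes of mitochondrial fatty acid beta-oxidation, the cycle that shortens an acyl-CoA after the carnitine shuttle has brought it into the mitochondrial matrix. The list was set by gene symbol and holds 10 members, Acadvl, Acadl, Acadm, Acads, Hadha, Hadhb, Hadh, Acaa2, Echs1 and Decr1. Each was matched by 1 probe set that carried its symbol alone. The members are thus 10 of 22180 named genes and 10 of the 14323 genes tested after a filter on low signal, which removed 0 of them.

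Total RNA of sorted mouse T cells was hybridised to 12 Affymetrix arrays (MoGene-2_0-st), with 4 groups of 3, to ask whether CD4 and CD8 T cells respond differently to linoleic acid. Cells of the spleen were exposed to 50 µM linoleic acid, a dietary polyunsaturated fatty acid, during a 24 h culture or were kept for the same 24 h without it, and the T cells were sorted afterwards. The groups are therefore CD4 T cells of linoleic acid culture, CD4 T cells of control culture, CD8 T cells of linoleic acid culture and CD8 T cells of control culture. The exposed culture was whole spleen, so the T cells met the fatty acid among the other spleen cells. The labels give neither the strain, age and number of the mice nor the source of a replicate, and p-values thus measure only how far these arrays spread, which could be technical.

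Beta-oxidation removes an acetyl unit from the acyl-CoA in each turn. An acyl-CoA dehydrogenase introduces a double bond and passes electrons to the electron transfer flavoprotein, a hydratase adds water, a dehydrogenase oxidises the hydroxyl group with NAD+ as acceptor, and a thiolase releases acetyl-CoA. The dehydrogenases divide the chain lengths among them, and the mitochondrial trifunctional protein carries all later activities for long chains. An unsaturated acid such as linoleic acid needs auxiliary isomerase and reductase steps as well. T cells are known to draw on this pathway to an extent that varies with their state, and its genes are known targets of the PPAR family of fatty acid receptors.

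All values below are deposited log2 intensities, and a difference is a log2 difference. A level of one gene cannot be set against that of another, because each probe set binds with its own strength. Chemosensory receptor genes, of which T cells should hold little mRNA, gave a gauge of background, and the 95th percentile of their 1394 means was 5.11. All 10 members had means above it, and Hadhb was the member with a single array below it, at 5.09 in CD4 linoleic acid replicate 2. Cd3e, a chain of the T cell receptor complex, lay between 11 and 11.86 on the 12 arrays. Cd8a, a chain of the CD8 co-receptor, read 10.98 to 11.29 in CD8 T cells and 5.01 to 6.82 in CD4 T cells, and Cd4 read 5.12 to 6.48 in CD8 T cells and 10.77 to 11.20 in CD4 T cells. In CD4 T cells Cd8a read 5.01 and 5.41 in the arrays numbered 1, against 6.16 to 6.82 in the others. In CD8 T cells Cd4 read 5.12 and 5.32, against 6.01 to 6.48. For Cd8b1, the other chain, the CD4 arrays overlapped, at 7.05 and 7.41 against 7.30 to 7.94. The part of the other T cell type in the cell type comparisons was not tested. Markers of other cells differed with the array number: the mean of 11 B cell markers was 5.86 to 6.33 in the 4 arrays numbered 1 and 7.11 to 7.77 in the other 8. The mean of 11 myeloid markers was 4.84 to 4.97 and 5.27 to 5.69 in the same arrays. Among 4 NK cell markers the mean was 4.14 to 4.47 in the arrays numbered 1 and 4.62 to 4.99 in the others. All of these NK cell means lay below the background gauge of 5.11. Of the single markers, 1 of 4 for NK cells and 5 of 11 for myeloid cells had means above it. The chemosensory receptor mean was lower in the arrays numbered 1 too, at 2.99 to 3.15, against 3.15 to 3.46. In bulk RNA of this kind, fewer cells of a type and less RNA per cell cannot be told apart. The part of background in these shifts was not tested.

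With linoleic acid, 0 of the 10 enzymes passed the test in CD4 T cells or in CD8 T cells. Limma, adjusting over all 14323 genes, called 0 members in CD4 T cells at a background of 0% of genes, and 0 members in CD8 T cells at a background of 0%. At an unadjusted p under 0.05 there were again 0 members in either cell type, beside 2.60% of all genes in CD4 T cells and 5.08% in CD8 T cells. The groups overlapped for 10 of 10 members in both, where 7.44% of genes in CD4 and 9.01% in CD8 T cells had no overlap. The median member differed by -0.01 in CD4 T cells, beside -0.00 over all genes, and 6 of 10 members lay below 0, beside 51.4% of genes. In CD8 T cells the median was -0.05, beside -0.06, with 8 of 10 below 0, beside 63.1%. Without CD4 control replicate 2 the CD4 median was -0.15. The highest upper bound of the members' 95% intervals was 0.36 in CD4 T cells (1.29-fold) and 0.42 in CD8 T cells (1.34-fold). The lowest lower bounds were -0.55 (1.46-fold lower) and -0.58 (1.49-fold lower). These intervals do not use the array number. With it as a block the highest upper bounds were 0.32 and 0.35, and the lowest lower bounds -0.52 and -0.51. With the block 0 members had a limma unadjusted p under 0.05 in either cell type, beside 5.61% of genes in CD4 and 13.5% in CD8 T cells.

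**Figure D1:**
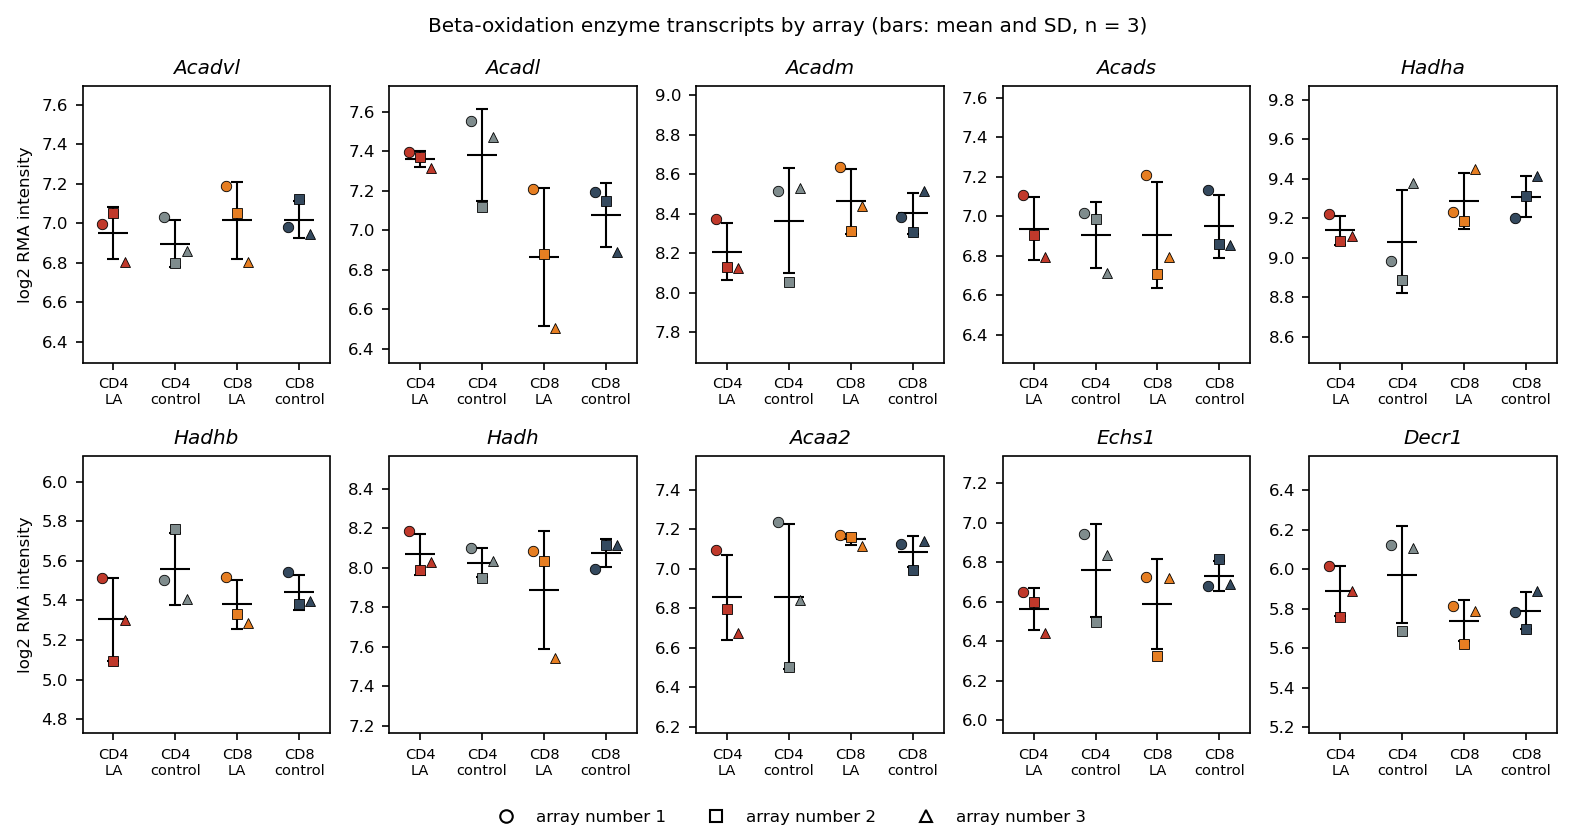
The log2 RMA intensity of each enzyme is plotted for every array by group, with the linoleic acid group left of its control group; markers give the array number, and bars the mean and SD of 3 arrays. Linoleic acid and control arrays of the same cell type overlap in every panel, and the Acadl values of CD8 T cells reach down to 6.51 in linoleic acid culture.

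The acyl-CoA dehydrogenases open the cycle. Acadl, the long-chain enzyme, read 7.40, 7.37 and 7.32 in CD4 T cells of linoleic acid culture, against 7.55, 7.12 and 7.47 in CD4 control culture. For Acadl in CD8 T cells the arrays read 7.21, 6.88 and 6.51 with linoleic acid, against 7.19, 7.15 and 6.89 in control culture. The linoleic acid values lay inside the range of the controls in CD4 T cells, while in CD8 T cells replicates 2 and 3 lay below every control. The difference was -0.02 ± 0.17 (SE, n = 3 per group, limma adjusted p = 1) in CD4 T cells and -0.21 ± 0.17 (limma adjusted p = 0.757, 95% interval -0.58 to 0.15) in CD8 T cells. Without CD8 linoleic acid replicate 3 the CD8 difference of Acadl was -0.03.

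Acadvl, the very-long-chain enzyme of the inner membrane, ran from 6.81 to 7.06 in CD4 T cells with linoleic acid, against 6.80 to 7.03 in control culture, and differed by 0.05 ± 0.13. Its CD8 values ran from 6.81 to 7.19 with linoleic acid, against 6.95 to 7.12 in control culture, a difference of -0.00 ± 0.13. Acadm, the medium-chain enzyme, read 8.37, 8.13 and 8.12 in treated CD4 T cells, against 8.51, 8.06 and 8.53 in control CD4 T cells. The first and the third control array stood above all treated ones and the second below them. The Acadm difference was -0.16 ± 0.15 in CD4 T cells and 0.06 ± 0.15 in CD8 T cells, where treated arrays ran from 8.31 to 8.64 and control arrays from 8.31 to 8.51.

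Acads, the short-chain enzyme, separated by array number rather than by culture. It read 7.11, 6.91 and 6.79 in CD4 T cells with linoleic acid, against 7.01, 6.99 and 6.71 in CD4 control culture. For Acads in CD8 T cells the values were 7.21, 6.71 and 6.79 with linoleic acid, against 7.13, 6.86 and 6.85 in control culture. The 4 arrays numbered 1, at 7.01 to 7.21, lay above the other 8, at 6.71 to 6.99. The share of all genes that separate in this way was not computed. The linoleic acid difference of Acads was 0.03 ± 0.15 in CD4 and -0.04 ± 0.15 in CD8 T cells, in neither case past the threshold.

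The hydratase and the trifunctional protein come next in the cycle. Echs1, the short-chain enoyl-CoA hydratase, read 6.65, 6.60 and 6.44 in CD4 T cells with linoleic acid, against 6.94, 6.49 and 6.84 in CD4 control culture. For Echs1 in CD8 T cells the arrays gave 6.72, 6.32 and 6.72 with linoleic acid, against 6.68, 6.82 and 6.69 in control culture. Replicate 2 of the CD8 linoleic acid group stood lowest of all 12 arrays, and both pairs of groups overlapped. The difference was -0.20 ± 0.15 in CD4 and -0.14 ± 0.15 in CD8 T cells, and without that array the CD8 difference of Echs1 was -0.0070. With array weights it was -0.37 (limma adjusted p = 0.0778). Over both cell types together Echs1 stood at -0.17 ± 0.10 (limma adjusted p = 0.925, 95% interval -0.39 to 0.05), lower with linoleic acid in 3 of 6 same-numbered pairs.

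Hadha and Hadhb encode the alpha and beta subunits of the trifunctional protein. Hadha carries the hydratase and hydroxyacyl-CoA dehydrogenase activities and Hadhb the thiolase. Hadhb read 5.52, 5.09 and 5.30 in CD4 T cells with linoleic acid, against 5.50, 5.76 and 5.41 in CD4 control culture. For Hadhb in CD8 T cells the values were 5.52, 5.33 and 5.29 with linoleic acid, against 5.55, 5.38 and 5.40 in control culture. The second pair of CD4 arrays held both extremes of the 12, and their difference of -0.67 compares with 0.01 and -0.11 in the other CD4 pairs. The CD4 difference was -0.25 ± 0.14, 1.19-fold lower (limma adjusted p = 1, 95% interval -0.55 to 0.04), the largest of the 10 in this contrast. Without CD4 control replicate 2 it was -0.15, without CD4 linoleic acid replicate 2 also -0.15, and without the arrays numbered 2 it was -0.05. In CD8 T cells Hadhb differed by -0.06 ± 0.14, and over both cell types by -0.16 ± 0.10 (limma adjusted p = 0.925), lower in 5 of 6 pairs.

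Hadha read 9.22, 9.08 and 9.11 in CD4 T cells with linoleic acid, against 8.98, 8.89 and 9.38 in CD4 control culture. For Hadha in CD8 T cells the arrays gave 9.23, 9.18 and 9.45 with linoleic acid, against 9.20, 9.31 and 9.41 in control culture. Control replicate 3 of CD4 T cells stood above all treated CD4 arrays and the other control arrays stood below them. The differences were 0.06 ± 0.14 in CD4 and -0.02 ± 0.14 in CD8 T cells. The subunits are made from neighbouring genes on mouse chromosome 5 that run in opposite directions, and their annotated starts have 272 bases between them. Over the 6 same-numbered pairs, the linoleic acid differences of Hadha and Hadhb had the same sign in 3.

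The sequences of the Hadhb and Acadl promoters are shown because Hadhb shares its upstream region with Hadha and because Acadl was the member that varied most over the arrays. Both are RefSeq windows of the GRCm38.p6 build that run from 250 bases before the annotated start to 50 after it, written 5′ to 3′ on the gene's own strand. Capitals mark the GC box, the core of Sp1 sites, as GGGCGG or, where it lies on the opposite strand, as CCGCCC. The Hadhb window lies at chr5:30155003-30155302 on the plus strand, and 228 of its 300 bases, chr5:30155003-30155230, also belong to the window of Hadha. The Acadl window lies at chr1:66863260-66863559 on the minus strand.
Hadhb: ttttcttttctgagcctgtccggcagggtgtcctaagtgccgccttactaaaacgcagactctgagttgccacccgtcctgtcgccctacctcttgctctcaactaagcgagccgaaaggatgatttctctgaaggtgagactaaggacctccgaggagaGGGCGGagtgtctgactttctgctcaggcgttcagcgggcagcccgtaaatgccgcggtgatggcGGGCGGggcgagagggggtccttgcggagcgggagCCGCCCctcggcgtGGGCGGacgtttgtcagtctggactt
Acadl: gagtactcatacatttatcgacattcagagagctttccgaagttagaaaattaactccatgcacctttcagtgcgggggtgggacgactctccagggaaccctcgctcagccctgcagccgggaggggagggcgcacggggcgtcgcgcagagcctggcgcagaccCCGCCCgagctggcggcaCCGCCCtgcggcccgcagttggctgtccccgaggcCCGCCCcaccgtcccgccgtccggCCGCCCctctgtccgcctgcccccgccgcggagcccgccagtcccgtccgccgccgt
Each of these windows holds 4 GC boxes, and the Acadl boxes are all on the opposite strand, at positions -84 to -7 from the start. Their GC content is 60.7% for Hadhb and 70.3% for Acadl.

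Windows were found for 8 of the 10 members, and Acaa2 and Decr1 were not searched. The GC box was in 6 of the 8 windows (Acadl, Acads, Echs1, Hadh, Hadha and Hadhb), beside 35.7% of all 32851 windows. The single box of Hadha, at chr5:30155163-30155168, is also the first box of Hadhb, so these members are not separate matches. The nuclear receptor half-site AGGTCA was in 3 (Acadm, Acadvl and Echs1), beside 16.3%. CCAAT was in 1 (Hadh), beside 37.4%. The direct repeat of that half-site with 1 base between, the element of PPAR and RXR, was searched without mismatches on both strands and was in 0 of 8, beside 0.0396% of all windows, so that exact letters are rare in any promoter window. TCAAGGTCA, the element of the estrogen-related receptors, was in 0 of 8, beside 0.423%. Also in 0 of 8 were TATAAA (13.6% of all windows), the ETS-type site CCGGAAG (8.86%) and the palindromic NRF1 site (4.6%). AGGTCA is part of both receptor elements, so these matches are not separate. The searched windows are short, and a match is a run of letters that was not tested for binding.

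The later steps belong to Hadh and Acaa2 for the shorter chains. Hadh, the hydroxyacyl-CoA dehydrogenase of the matrix, ran from 7.99 to 8.19 in CD4 T cells with linoleic acid, against 7.95 to 8.10 in control culture, a difference of 0.04 ± 0.14. In CD8 T cells Hadh read 8.09, 8.03 and 7.54 with linoleic acid, against 7.99, 8.11 and 8.12 in control culture. Replicate 3 of the treated CD8 arrays stood lowest of the 12, as it did for Acadl. The CD8 difference was -0.19 ± 0.14 (limma adjusted p = 0.757), and without that array it was -0.02.

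Acaa2, the matrix thiolase, read 7.09, 6.80 and 6.68 in CD4 T cells with linoleic acid, against 7.24, 6.50 and 6.84 in CD4 control culture. For Acaa2 in CD8 T cells the arrays gave 7.17, 7.16 and 7.12 with linoleic acid, against 7.12, 6.995 and 7.14 in control culture. The CD4 controls spanned all treated CD4 arrays, and the CD8 arrays lay within a narrow band. The differences were -0.00 ± 0.17 in CD4 and 0.06 ± 0.17 in CD8 T cells.

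Decr1, the 2,4-dienoyl-CoA reductase, handles the conjugated double bonds that arise when acids such as linoleic acid are degraded. It read 6.01, 5.76 and 5.89 in CD4 T cells with linoleic acid, against 6.12, 5.69 and 6.11 in CD4 control culture. For Decr1 in CD8 T cells the values were 5.81, 5.62 and 5.79 with linoleic acid, against 5.79, 5.70 and 5.89 in control culture. Treated and control arrays overlapped in both cell types. Decr1 differed by -0.08 ± 0.14 in CD4 T cells and -0.05 ± 0.14 in CD8 T cells, and over both by -0.07 ± 0.10 (limma adjusted p = 0.935, 95% interval -0.27 to 0.14). The other auxiliary enzymes of unsaturated and branched substrates were measured beside it. The enoyl-CoA isomerases Eci1 and Eci2, the dienoyl-CoA isomerase Ech1, the dehydrogenase Hsd17b10 and the thiolase Acat1 all had negative mean differences with linoleic acid, from -0.06 for Ech1 to -0.19 for Eci2. In limma 0 of these 5 passed (adjusted p 0.925 to 0.95).

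Over both cell types together the comparison with linoleic acid gained precision and still called 0 of the 10 enzymes, at a background of 0% of genes, with 0 members at an unadjusted p under 0.05, beside 4.84%. With the array number as a block it called 26 genes, 0.182% of those tested, and again 0 members. The member median was -0.06, beside -0.04 over all genes, and 7 of 10 members lay below 0, beside 63.1% of genes. Acadvl, Hadha and Acaa2 stood at 0.03, 0.02 and 0.03, and Acadl, Acadm, Acads and Hadh at -0.12, -0.05, -0.01 and -0.07, with standard errors of 0.09 to 0.12. The interval that reached highest ended at 0.28 (1.21-fold), for Acaa2, and the one that reached lowest ended at -0.39 (1.31-fold lower), for Echs1.

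**Figure D2:**
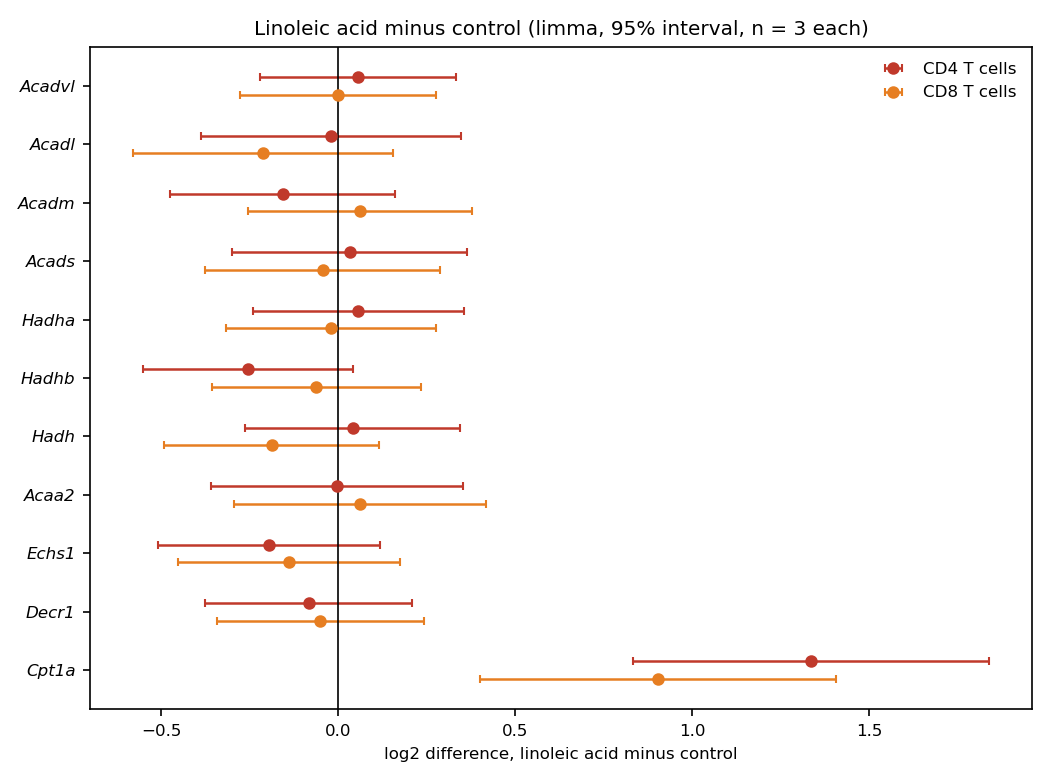
The log2 difference between linoleic acid and control culture is plotted for each enzyme and for Cpt1a, with CD4 above CD8 T cells, points for the limma estimate and bars for its 95% interval (n = 3 per group). Each enzyme's interval includes 0, and those of Cpt1a start at 0.83 in CD4 and 0.40 in CD8 T cells.

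The enzyme that feeds the cycle stood apart from its members. Cpt1a, the carnitine palmitoyltransferase of the outer membrane and a known PPAR target, read 8.34, 7.96 and 7.71 in CD4 T cells with linoleic acid, against 6.99, 6.40 and 6.62 in CD4 control culture. For Cpt1a in CD8 T cells the arrays gave 8.19, 7.80 and 7.17 with linoleic acid, against 6.88, 6.88 and 6.69 in control culture. Treated arrays lay above all controls in both cell types, a difference of 1.34 ± 0.23 in CD4 (limma adjusted p = 0.845, and 0.00335 with the array number as a block) and of 0.90 ± 0.23 in CD8 T cells (0.757, and 0.0507 with the block). Over both it was 1.12 ± 0.17 (adjusted p = 0.147, and 0.000348 with the block). Without CD8 linoleic acid replicate 3, the lowest treated array, the difference over both was 1.26 (limma adjusted p = 0.0092). The other 5 carnitine genes measured, among them Cpt2 of the inner membrane at -0.01 and the carrier Slc25a20 at 0.14, were not called with or without the block.

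Genes that share the electrons, substrates or control of beta-oxidation were set beside the members for linoleic acid over both cell types, and limma called 0 of them with or without the block. Among the flavoproteins that take the electrons, Etfa stood at -0.16, Etfb at 0.05 and Etfdh at 0.10. The other acyl-CoA dehydrogenases, mostly of amino acid breakdown, had a median of -0.05 over 7 genes, of which 5 lay lower. Peroxisomal beta-oxidation genes had a median of -0.05 over 10, of which 9 lay lower, with the multifunctional enzyme Hsd17b4 at -0.24 (adjusted p = 0.925). The 9 tested receptors and coactivators had a median of -0.07. Ppargc1b, a coactivator of mitochondrial genes, stood at -0.23 over both cell types and at -0.43 ± 0.13 in CD8 T cells (limma adjusted p = 0.757). Ppara, Pparg and Ppargc1a lay below the filter, so Ppara, the receptor most tied to this pathway, gave no test here. Ppard, another PPAR, was tested and not called. It ran from 6.01 to 6.21 in CD4 T cells with linoleic acid, against 5.74 to 6.43 in control culture. In CD8 T cells Ppard ran from 5.85 to 6.71 with linoleic acid, against 6.13 to 6.40.

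Mitochondrial genes outside fatty acid breakdown had lower medians than the members. All 16 tested citric acid cycle genes lay lower with linoleic acid over both cell types, with a median of -0.13, as did all 32 tested complex I genes, with a median of -0.14, and all 11 tested genes of import and pores, with a median of -0.17. Over all genes 63.1% lay lower. In limma 0 passed in each list with or without the block. At an unadjusted p under 0.05 and lower there were 1, 8 and 2 genes in that order, beside 2.94% of all genes, and 3, 10 and 3 with the block, beside 5.68%. The median over all genes was -0.04, and that of the 10 beta-oxidation enzymes was -0.06. Whether these lists differ from the members was not tested. Markers of other cells stood on the other side of 0 in the same contrast, with 0 called by limma. The difference was above 0 for 9 of 11 B cell markers (median 0.12), 9 of 10 tested myeloid markers (median 0.15) and 2 of 3 tested NK cell markers (median 0.12). The B cell marker mean ran from 5.92 to 7.77 in linoleic acid arrays, against 5.86 to 7.56 in control arrays. The myeloid mean ran from 4.86 to 5.69 with linoleic acid, against 4.84 to 5.55 in control culture, and the NK cell mean from 4.14 to 4.99, against 4.18 to 4.74. The part of these cells in the values of the enzymes and the other mitochondrial genes was not tested.

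**Figure D3:**
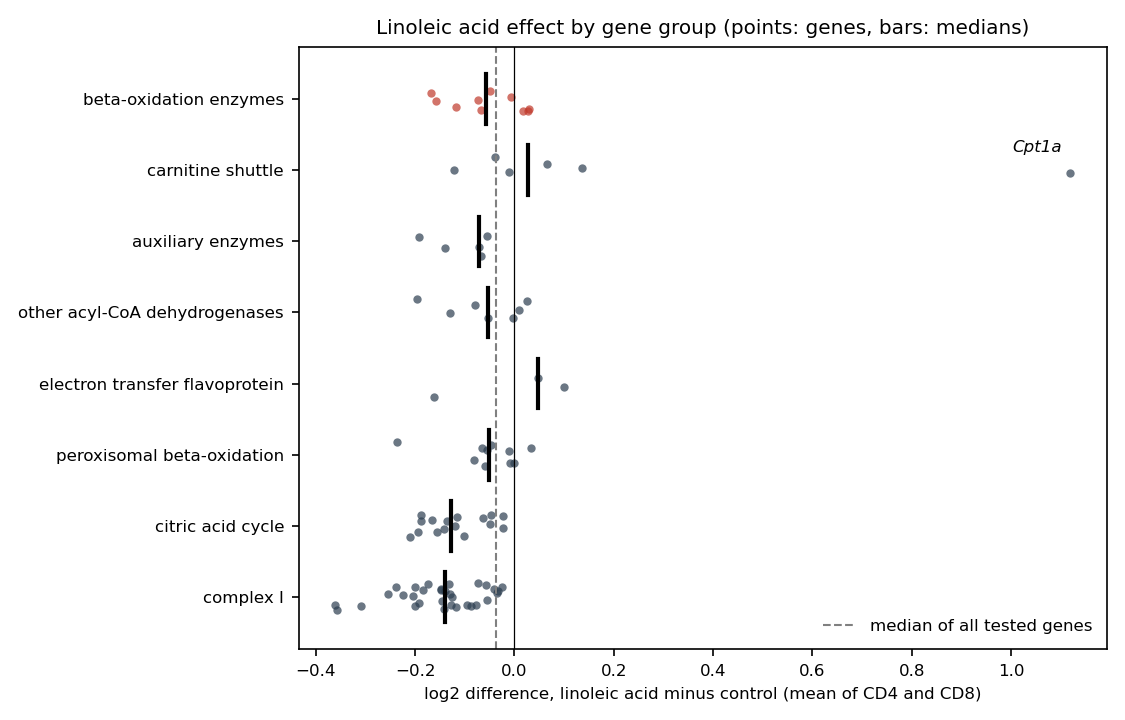
Each point is the log2 difference of 1 gene between linoleic acid and control culture, averaged over CD4 and CD8 T cells, by gene group; bars are group medians and the dashed line is the median of all tested genes. The beta-oxidation enzymes lie between -0.17 and 0.03, and Cpt1a stands alone at 1.12.

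The response to linoleic acid was not found to differ between the cell types. The difference between the effects, CD4 minus CD8, was past the threshold for 0 of the 10 enzymes at a background of 0% of genes, and at an unadjusted p under 0.05 for 0 members, beside 2.35% of genes. The member median was 0.01, from -0.22 for Acadm to 0.23 for Hadh. Acadl stood at 0.19, Acads and Hadha at 0.08 each and Acadvl at 0.06, while Hadhb stood at -0.19, Acaa2 at -0.07, Echs1 at -0.06 and Decr1 at -0.03. These differences carry standard errors of 0.18 to 0.24, and their 95% intervals reached from -0.67 to 0.71, so cell type differences in the response of up to 1.59-fold on the lower side and 1.64-fold on the higher side lie within them.

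The enzymes were then compared between CD8 and CD4 T cells. Limma called 0 of 10 in linoleic acid culture, where it called 2.03% of genes (5.57% with the array number as a block, again with 0 members). In control culture it called 0 of 10, beside 1.95% of genes. At an unadjusted p under 0.05 there was 1 member, Acadl, in linoleic acid culture, beside 11.8% of genes, and there were 0 in control culture, beside 9.37%. With the array number as a block there were 3 members in linoleic acid culture, Acadl, Acadm and Acaa2, beside 19.1% of genes. In control culture there was then 1 member, Acadl (limma unadjusted p = 0.048), beside 14.5% of genes. The member medians were 0.05 in linoleic acid culture and 0.04 in control culture.

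Acadl had the largest cell type difference of the 10. Its CD8 arrays read 7.21, 6.88 and 6.51 in linoleic acid culture, against 7.40, 7.37 and 7.32 in CD4 T cells, with every CD8 array below every CD4 array. In control culture the CD8 arrays read 7.19, 7.15 and 6.89, against 7.55, 7.12 and 7.47 in CD4 T cells, and CD4 replicate 2 lay within the CD8 range. The difference was -0.50 ± 0.17 in linoleic acid culture, 1.41-fold lower (limma adjusted p = 0.223, 95% interval -0.86 to -0.13), and -0.30 ± 0.17 in control culture (adjusted p = 0.677, 95% interval -0.67 to 0.06). With the array number as a block the adjusted p in linoleic acid culture was 0.0522, and without CD8 linoleic acid replicate 3 the difference was -0.32 (adjusted p = 0.547). Averaged over both cultures, a contrast added after the data were seen, Acadl was 1.32-fold lower in CD8 T cells (-0.40 ± 0.12, limma adjusted p = 0.0862, where 4.71% of genes passed). With the array number as a block, which also ties control arrays that are not taken as pairs, Acadl passed in this average (adjusted p = 0.0168, where 9.23% of genes passed). With array weights Acadl passed in linoleic acid culture (-0.48, limma adjusted p = 0.00764), where 2299 of 14323 genes passed. The B cell marker mean was lower in the CD8 arrays too, at 5.92, 7.22 and 7.22 in linoleic acid culture, against 6.33, 7.77 and 7.73 in CD4 T cells, and its part in this difference was not tested.

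Acaa2 was the other member whose arrays did not overlap in linoleic acid culture, so 2 of 10 members did not, beside 15.3% of genes. Its CD8 arrays at 7.12 to 7.17 lay above the CD4 arrays at 6.68 to 7.09, a difference of 0.29 ± 0.17 (limma adjusted p = 0.537). In control culture Acaa2 differed by 0.23 ± 0.17 and the arrays overlapped, as did those of all 10 members there, beside 16.1% of genes that did not. Hadha had positive differences in CD8 T cells, of 0.15 ± 0.14 in linoleic acid culture and 0.23 ± 0.14 in control culture (adjusted p = 0.737 and 0.724). Acadm differed by 0.25 ± 0.15 and 0.04 ± 0.15 in the same order of cultures, and Decr1 by -0.15 ± 0.14 and -0.18 ± 0.14. The remaining members, Acadvl, Acads, Hadhb, Hadh and Echs1, lay between -0.18 and 0.12 in both cultures.

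**Figure D4:**
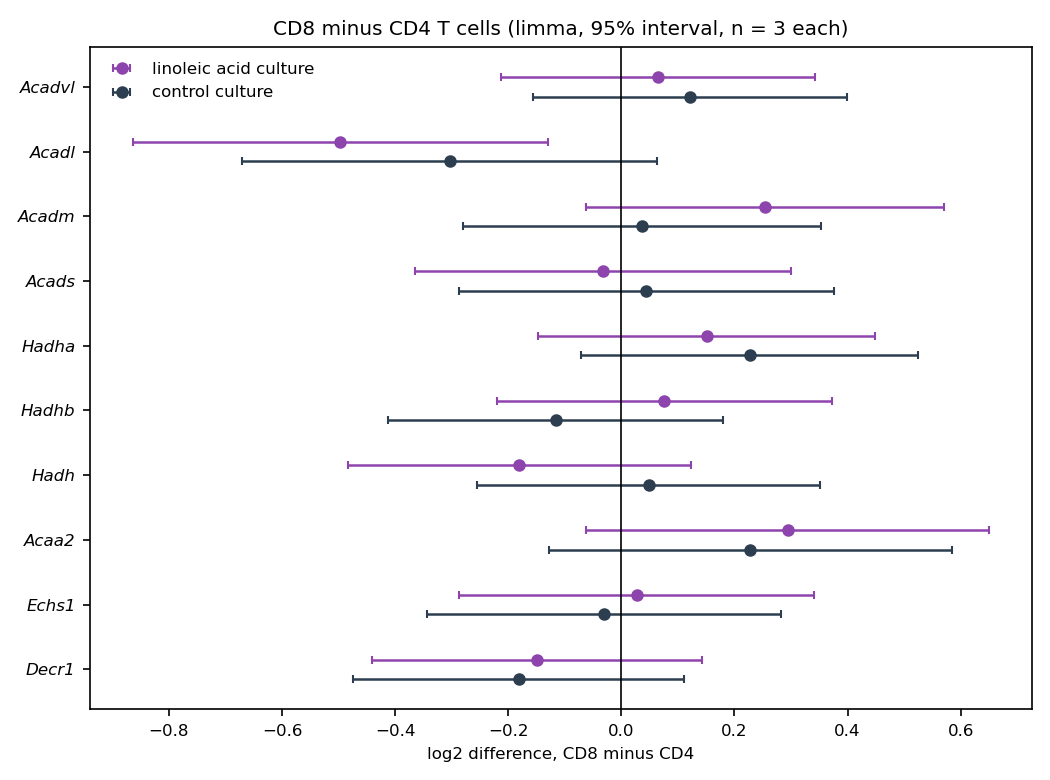
The log2 difference between CD8 and CD4 T cells is plotted for each enzyme, with linoleic acid culture above control culture, points for the limma estimate and bars for its 95% interval (n = 3 per group). Acadl in linoleic acid culture, at -0.50, has the interval that excludes 0.

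Among the genes tied to the pathway, Nrip1 and Idh3a were called between the cell types in linoleic acid culture, where 2.03% of all genes were called. They were 1 of 9 tested receptors and coactivators and 1 of 16 citric acid cycle genes. Called were 0 of 6 carnitine, 5 auxiliary, 7 other dehydrogenase, 3 flavoprotein and 10 peroxisomal genes, and 0 of 32 complex I and 11 import and pore genes. Nrip1, a corepressor of nuclear receptors that restrains oxidative metabolism, read 8.31, 7.98 and 7.31 in CD8 T cells of linoleic acid culture, against 8.96, 8.82 and 8.57 in CD4 T cells. CD8 T cells were lower there, with a difference of -0.92 ± 0.21 (limma adjusted p = 0.0417), and the control culture difference was -0.47 ± 0.21 (adjusted p = 0.522). Idh3a, a subunit of the citric acid cycle's isocitrate dehydrogenase, was higher in CD8 T cells by 0.54 ± 0.12 in linoleic acid culture (limma adjusted p = 0.0269) and stood at 0.49 ± 0.12 in control culture (adjusted p = 0.0528, and 0.0356 without CD4 control replicate 3). Both calls in linoleic acid culture were lost when any one of CD4 linoleic acid replicates 1, 2 and 3 or CD8 linoleic acid replicates 2 and 3 was left out, with limma adjusted p-values of 0.0589 to 0.165 for Nrip1 and 0.0611 to 0.143 for Idh3a. Both were also lost in a fit of the compared groups alone (limma adjusted p = 0.181 for Nrip1 and 0.086 for Idh3a). With the array number as a block both stayed called (limma adjusted p = 0.00355 for Nrip1 and 0.00873 for Idh3a), where 5.57% of genes were called. The flavoprotein genes stood at 0.16 to 0.30 in linoleic acid culture and at 0.07 to 0.37 in control culture, with 0 of 3 called.

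In the median, the array number took a larger share of an enzyme's variation than culture or cell type did, with no allowance for its extra level. In sums of squares over the 12 arrays, the number, which has 3 levels where culture and cell type have 2, took a median of 32.8% per member (range 17.7% to 76.8%), the cell type 15.7% (0.0027% to 50.1%) and linoleic acid 3.09% (0.035% to 25.1%). The number had the largest share of these 3 for 6 members, the cell type for Acadl and Acaa2, and linoleic acid for Hadhb and Echs1. The share left unexplained ran from 16.0% for Decr1 to 58.7% for Hadh. It was larger than any of these 3 shares for Hadh, Echs1 (52.7%) and Hadhb (45.4%). For 9 of 10 members the 4 arrays numbered 1 averaged higher than the other 8, by 0.11 to 0.29, and Hadha was the exception at -0.07. The share of all genes that did so was not computed, so this is no trait shown to be particular to the enzymes. The mean of 1394 chemosensory receptor genes also moved with the number. It was 2.99 to 3.15 in the arrays numbered 1, 3.15 to 3.41 in those numbered 2 and 3.28 to 3.46 in those numbered 3. The arrays numbered 1 were those with the lower B cell, myeloid and NK cell marker means. They also had the lower Cd8a in CD4 T cells and the lower Cd4 in CD8 T cells. The part of all these cells in the enzyme values was not tested. CD4 control replicate 2 held the lowest value of the 12 for Acadvl, Acadm, Hadha and Acaa2 and the highest for Hadhb.

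**Figure D5:**
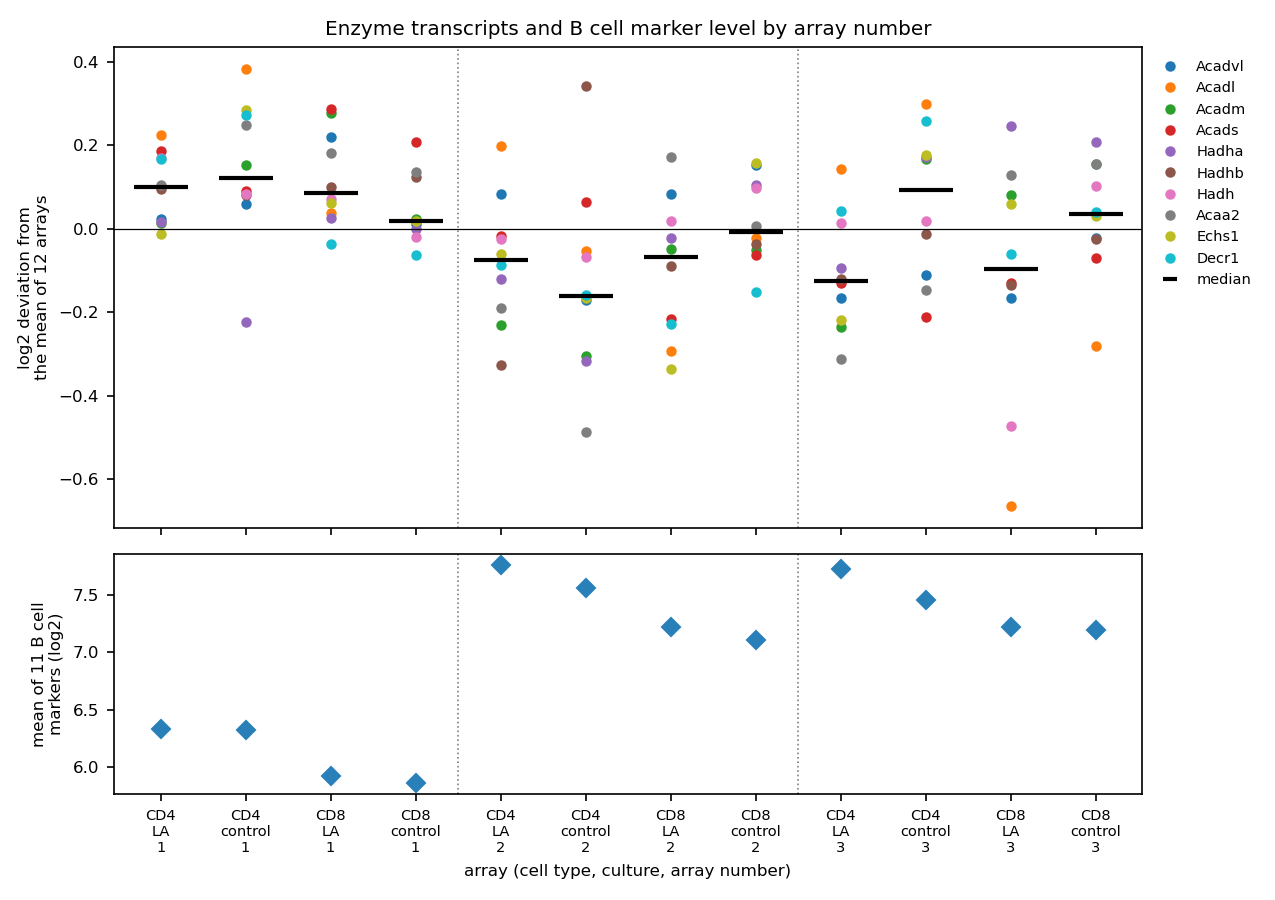
The upper panel plots each enzyme's log2 deviation from its own mean over the 12 arrays, with bars for the median enzyme, and the lower panel the mean log2 value of 11 B cell markers, by array number. The median enzyme lies above 0 in all 4 arrays numbered 1, where B cell marker means are 5.86 to 6.33, and also in control replicate 3 of CD4 and of CD8 T cells, where they are 7.46 and 7.20.

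The members with the largest spread over the 12 arrays were Acadl (SD 0.30) and Acaa2 (SD 0.23), and the genes of most similar profile were sought for them, by the root mean square difference after centring each gene. For Acadl these were Usp53 at 0.073, Mepce at 0.087 and Kmt5b at 0.087, where the median gene differed by 0.311. For Acaa2 they were Tfb1m at 0.046, Klhdc1 at 0.0996 and Obi1 at 0.107, where the median gene differed by 0.277. The 12 arrays share array numbers and cell types, so these profiles are a description of the arrays.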

How the data were processed

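The values are log2 intensities of 41345 probe sets on 12 arrays, taken from the deposited table of the authors. Per the submitters' processing notes they were made with RMA, which corrects background, normalizes quantiles over arrays and summarizes probes. Not given in the sources used here: its software, its summary level and the build. Array medians ran from 4.66 to 4.80, and no further normalization was applied. No read depth exists for arrays, and their number limits the precision.

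Probe sets with a single symbol in the platform annotation (23521) named 22180 genes. The probe set of highest mean stood for a gene that had several. Genes with a mean below the 40th percentile of probe set means (4.28) were left out. Limma 3.58.1 in R 4.3.3 (lmFit, eBayes, two-sided) fitted all 12 arrays as 4 groups, checked on simulated data, with Benjamini-Hochberg adjustment over 14323 genes at 0.05. Contrasts were linoleic acid against control in each cell type and averaged, the difference between these effects, and CD8 against CD4 in each culture. All 10 members were described in every contrast, other genes came from fixed lists of related pathways, the citric acid cycle, complex I and import lists gave at most their smallest p, and 3 genes of most similar profile were sought for the 2 members of largest SD. Some genes of these lists were not analysed here. The members and lists were chosen with earlier results of these data known.

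The labels number arrays 1 to 3 in each group and do not say what a number marks. Across genes, the deviations from the group mean of arrays that share a number correlated at 0.61, 0.19 and 0.32 for the CD4 cultures. They correlated at 0.43, 0.19 and 0.42 for the CD8 cultures, and at 0.58, 0.26 and 0.52 for CD8 and CD4 T cells in linoleic acid culture. Arrays of unlike number reached at most 0.32, 0.02 and 0.03 in the same order. That 0.32, of CD4 linoleic acid replicate 3 with CD4 control replicate 2, was as high as for the shared number 3 and above that for number 2. All correlations of shared numbers were above the set minimum of 0.1. The numbers were therefore taken to pair these groups, on the evidence of the data alone, which for numbers 2 and 3 of the CD4 cultures is weak. The fit reported holds no block, so its errors, intervals and p-values do not use this pairing, except where the block is named. For CD8 and CD4 T cells in control culture the correlations of shared numbers were 0.54, -0.01 and 0.42, and no pairing was taken from this comparison. The pairings of the other groups, followed in turn, link these arrays by number all the same, and so does the block. Alternatives were the block, other filters, probe set averaging, median centring, renormalization, a trended robust fit, array weights, a fit of the compared groups alone and leaving out arrays. Promoter windows are RefSeq's, of GRCm38.p6.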

Additional observations from a re-analysis of the deposited data

How the results depend on the processing

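Across 1200 values of the 10 enzymes under the alternatives, 1199 kept their side of the threshold and 0 reversed a call, and the sign of 129 uncalled values turned. The exception was Acadl in CD8 against CD4 T cells of linoleic acid culture. It passed with array weights (-0.48, limma adjusted p = 0.00764), where 2299 of 14323 genes passed. Its value ran from -0.67 to -0.32 with arrays left out, and its adjusted p over all alternatives from 0.00764 to 0.938. Averaged over both cultures, Acadl had an adjusted p of 0.0862, or 0.0168 with the replicate block, where the numbers are not taken to pair the control arrays, and 0.0199 to 0.212 with 1 array left out, past the threshold in 1 of 12 runs (CD8 linoleic acid replicate 1 left out). With arrays centred on their medians, Nrip1 and Idh3a in linoleic acid culture had limma adjusted p-values of 0.06 and 0.0771, and Nrip1 had 0.0642 with no filter. Idh3a in control culture passed with a stricter filter (limma adjusted p = 0.0357), array weights (0.0231) and the block (0.021). The average over both cultures is a different contrast that includes the linoleic acid arrays. In that contrast Idh3a had a limma adjusted p of 0.0016 and Nrip1 of 0.0149, where 4.71% of genes passed. Cpt1a over both cell types passed with the block, quantile normalization (0.0421) and array weights (0.000715). The member median for linoleic acid in CD4 T cells ran from -0.15 (without CD4 control replicate 2) to 0.036 with arrays left out.

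Counts of called genes moved more than those of the members. With linoleic acid in CD4 T cells the 0 became 1 with the replicate block and 1 with array weights, and 0 to 1 with arrays left out. In CD8 T cells the 0 became 1 with the block and 213 with array weights. Over both it became 26 with the block, 1 with quantile normalization, 3 with array weights and 0 to 1 with arrays left out. For CD8 against CD4 T cells in control culture the 280 became 630 with the block and 65 to 230 with arrays left out. In linoleic acid culture the 291 became 798 with the block, 2299 with array weights, 138 from the compared groups alone and 62 to 322 with arrays left out. The average over both cultures, a separate contrast chosen after the data were seen, called 674 genes. The block changed no other call of a member, and the causes of these moves were not tested. A fit of the compared groups alone uses all 4 groups, and so equals the fit reported, for the averaged contrast and for the difference between effects. With 3 arrays a group, differences within the intervals given cannot be seen, and Hadhb lies near the background gauge.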
